A study of Drosophila melanogaster with 26 samples.

Results

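The transcripts of primordial germ cells (PGCs, the pole cells of the Drosophila melanogaster embryo) were compared between wild-type embryos aged 3 to 5 hours and wild-type embryos aged 1 to 3 hours. The samples were taken by their titles, 4 biological replicates at each age, which are 8 of the 26 samples in the series. Total RNA of sorted cells was measured on custom NimbleGen arrays, and 16623 of 17130 features carry a FlyBase transcript identifier and were tested. Alongside the PGC time course, the series holds somatic cells of 1-to-3 hour wild-type embryos (4 samples) and PGCs of smaug mutants, of which the 3 samples at 1-to-3 hours and the 3 at 3-to-5 hours are used here. The labels call the groups wild type and smaug mutant. The strain they list without a smg allele is w1118, VASA-GFP/CyO ; PrDr/TM3,Sb, and the mutant embryos came from flies with the smg1 allele over the deficiency Df(3L)Scf-R6, also with VASA-GFP. All flies were kept at 25°C, and PGCs of both genotypes and ages were sorted by the fluorescence of the GFP fusion to Vasa, a germ-line RNA helicase. Before the sort the cells were treated with trypsin at a higher temperature than that. The fusion is used as a marker of germ-line cells, although the GFP feature of the arrays was as bright in the somatic samples, at a mean log2 signal of 12.80. Each sample pools many embryos from a collection window, so that differences between embryos cannot be seen.

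PGCs form at the posterior pole of the embryo, where they take up the germ plasm, a cytoplasm rich in maternal mRNAs and in the proteins that specify the germ line. In the maternal-to-zygotic transition of the embryo, mRNAs that the mother deposited are degraded and transcription from the embryo's own genome begins. In Drosophila PGCs transcription is held back by the Pgc protein after the soma has started, and the RNA-binding protein Smaug recruits a deadenylase to maternal mRNAs so that they are translated less and degraded.

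The labelled cell type was checked with 8 germ-line genes that could be named, while vas and tud could not be named. The log2 signal of pgc, the repressor of transcription in pole cells, was 15.58, 15.56, 15.61 and 15.41 at 1-to-3 hours and 14.97, 15.17, 15.33 and 15.22 at 3-to-5 hours, against a mean of 11.89 in somatic cells. The gap-junction gene zpg stood at 15.38 ± 0.14 (SD, n = 4) and 15.03 ± 0.07, and nos, a posterior determinant and translational repressor, at 14.73 ± 0.08 and 13.88 ± 0.11. All 8, with aub, piwi, ovo, gcl and osk, lay above the somatic level at both ages. Many names come from the study's list of transcripts higher in these 1-to-3 hour PGCs than in these somatic samples. Such naming favours genes above the somatic level, so this is not an independent check. Markers of other cell types were named in part. The summed linear signal of Mef2 and sna, of the 5 mesoderm markers, was 4410 to 7087 at 1-to-3 hours and 1711 to 2616 at 3-to-5 hours, against 23772 in somatic cells. That of Cg25C, Pxn and ush, of the 5 hemocyte markers, was 1676 to 2159 and then 3123 to 4510, against 51646, and that of hkb (listed as CG9768), of the 4 midgut markers, was 550 to 842 and then 2320 to 2481, against 4057. Ectodermal markers could not be named. The part of such cells in the results was not tested for single genes, and values that bear on it are given with the increases.

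The 8 arrays had a mean log2 signal of 8.20 to 8.23, and their array controls had medians of 4.22 to 4.47. Spearman's correlation over all tested transcripts was 0.945 to 0.955 among the 1-to-3 hour samples, 0.970 to 0.977 among the 3-to-5 hour samples and 0.924 to 0.946 between the ages, and transcripts on 1 array are not independent. The median transcript had an SD of 0.315 between the 1-to-3 hour samples and 0.252 between the 3-to-5 hour samples, and their number limits the precision. The deposited intensities were quantile-normalized, so a change of the total RNA of a cell cannot be seen, and fewer cells of a type and less RNA in each cannot be told apart in sorted bulk samples. The GFP feature of the arrays had a mean log2 signal of 12.69 and 13.00 in wild-type PGCs at the 2 ages. The targeted gene, smg, was measured by its brightest transcript at 11.19 to 11.73 in the 6 mutant samples and at 12.48 to 13.98 in the 8 wild-type samples. By the methods the dye differed between the genotypes as well.

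At 3-to-5 hours, 1011 transcripts were decreased and 887 were increased. These are 6.08% and 5.34% of the 16623 tested. A call asked for more than a 2-fold change with a Benjamini-Hochberg adjusted p under 0.05 by limma on log2 values, and the transcript had to be present, which means above the mean of its array, at 1-to-3 hours for a decrease and at 3-to-5 hours for an increase. Of the 7260 transcripts present at 1-to-3 hours 13.9% decreased, and of the 7400 present at 3-to-5 hours 12.0% increased. Without the present level, 1366 (8.22%) were lower and 1499 (9.02%) higher by the same thresholds. The median log2 change over all tested transcripts was -0.03. The 4 and 4 values did not overlap for 992 of the decreased and 836 of the increased transcripts, while over all tested transcripts 17.7% were lower and 16.0% higher at 3-to-5 hours without overlap. The p-values measure the spread between these samples, which the labels call biological replicates.

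**Figure D1:**
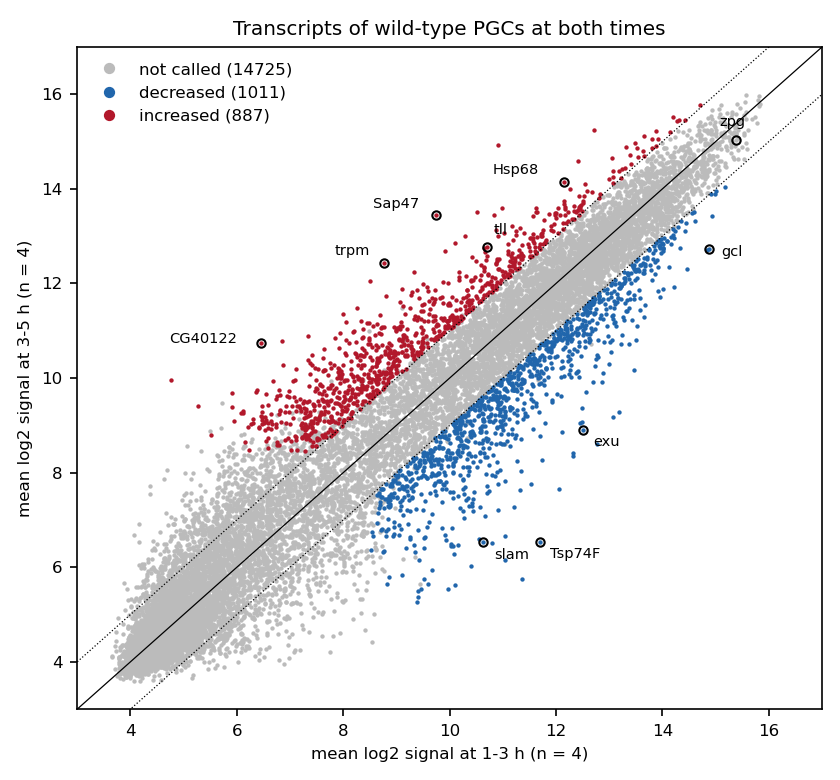
Mean log2 signal of each tested transcript of wild type at 1-to-3 hours (x axis, n = 4) and at 3-to-5 hours (y axis, n = 4), with the 1011 decreased transcripts in blue, the 887 increased in red and the others in grey. The dotted lines mark a 2-fold change, and both sets run along the whole range of signals above the present level.

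The decreased transcripts had a median log2 change of -1.45. Their median signal went from 11.04 at 1-to-3 hours to 9.44 at 3-to-5 hours, beside 10.23 in somatic cells of the earlier age. More than 4-fold decreases were seen for 228 of them and more than 8-fold decreases for 63, and 676 were still present at 3-to-5 hours. The increased transcripts had a median log2 change of 1.53, from 8.85 to 10.57, and 465 of them were already present at 1-to-3 hours. Increases beyond 4-fold were seen for 223 and beyond 8-fold for 29. Every called transcript had a mean above the array controls in its lower group, but the controls set no limit of detection, and the changes of transcripts near them may be understated.

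Gene names were known for 878 of the decreased transcripts, of 807 genes, and for 690 of the increased, of 647 genes. They come from the study's supplementary tables, by equal values, and these tables are not independent of the change described here. Among the 3399 transcripts named through tables that use no 3-to-5 hour sample, 15.8% decreased and 2.38% increased, and these shares are the background for the gene groups below. Those tables select transcripts by the 1-to-3 hour PGC samples that are also the baseline here, so this background is not free of selection. Over all tested transcripts 6.08% decreased and 5.34% increased. Among all 5395 named transcripts the shares were 16.3% and 12.8%, since the other tables list transcripts by their later behaviour. Counts over all names are to be read beside these 2 shares. Each gene is described by its brightest named transcript.

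Among the 10 largest decreases were genes of transport, signalling and membrane growth. The transcript of foxo, the forkhead factor that acts downstream of the insulin receptor (FBtr0082885), had log2 signals of 10.47, 9.89, 10.57 and 10.66 at 1-to-3 hours and 5.40, 6.19, 6.27 and 6.25 at 3-to-5 hours. The ages were far apart, and 1 sample at 3-to-5 hours was lower than the rest. The log2 change was -4.36 (SE 0.25, limma adjusted p = 2.82e-05), where SE is the standard error, or 20.6-fold. The gene slam, which directs membrane growth in cellularization (FBtr0290281), stood at 10.15, 11.07, 10.73 and 10.57 and then at 6.13, 6.96, 7.76 and 5.25, with the 3-to-5 hour samples widely spread but all below the earlier ones. Its log2 change was -4.11 (SE 0.49, limma adjusted p = 0.000524). Its somatic level of 13.52 was above both ages. The peptide transporter gene yin (FBtr0070631) went from 12.63, 12.74, 12.69 and 13.02 to 8.14, 8.70, 8.55 and 9.05, a change of -4.16 (SE 0.21, limma adjusted p = 1.38e-05). It ended close to the mean of the array.

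The other 7 large decreases were those of transporters, enzymes, an adaptor, a tetraspanin and uncharacterized genes. Efr, a nucleotide-sugar transporter of the secretory pathway, fell by 3.97 on the log2 scale, and CG10960 (now nebu), a sugar transporter of the membrane, fell by 4.29. The tetraspanin Tsp74F fell by 5.16, the cytochrome P450 gene Cyp6a19 by 4.90, ced-6, an adaptor in the engulfment of dying cells, by 4.49, and the uncharacterized CG1146 and CG13004 by 4.43 and 4.38. In each of these 10 genes the highest 3-to-5 hour sample was below the lowest 1-to-3 hour sample, which the selection asked for. The adjusted p-values from limma lay between 1.05e-05 and 0.000524.

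**Figure D2:**
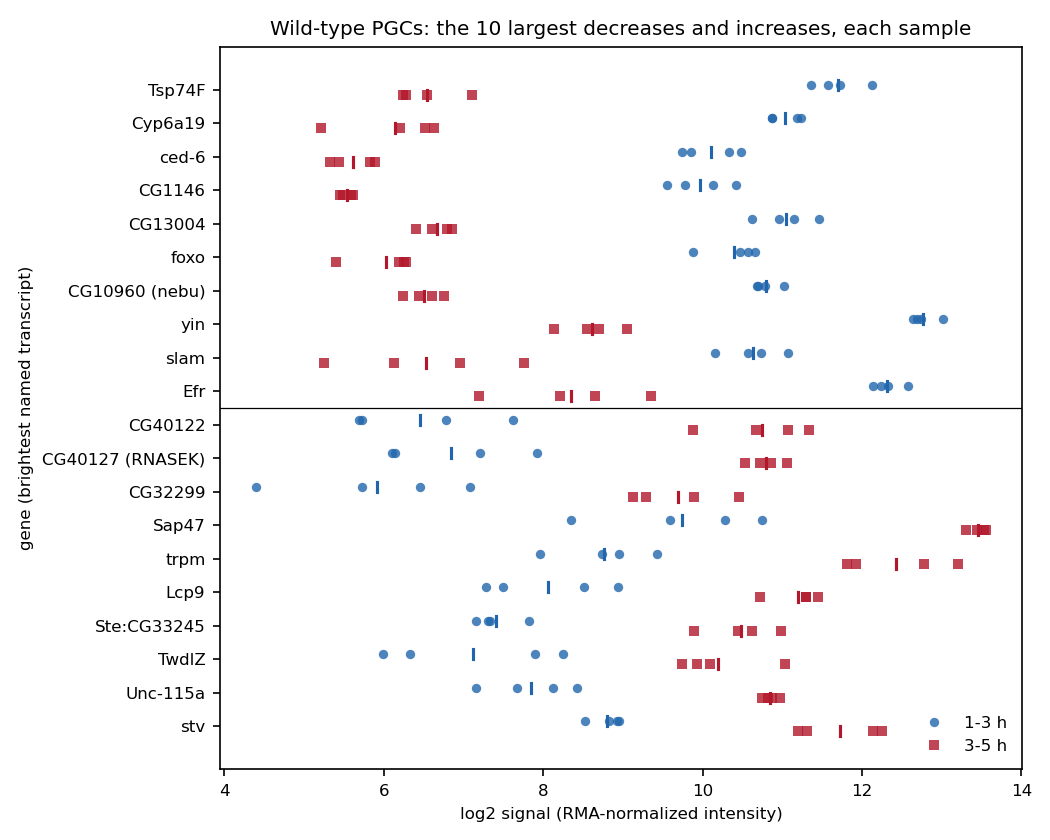
Log2 signal (x axis) of the brightest named transcript of the 10 genes with the largest decreases, above the line, and the 10 with the largest increases, below it, with a blue point for each 1-to-3 hour sample, a red square for each 3-to-5 hour sample and a bar at each group's mean. The samples of the 2 ages lie apart in every row because the genes were selected for it, and the 1-to-3 hour samples of CG32299 and Sap47 have the widest ranges.

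Germ-plasm genes were lower at 3-to-5 hours in 10 of 31 named transcripts and higher in 1, with a median log2 change of -0.61 over the list. With names from tables without 3-to-5 hour samples the count was 9 of 26, or 34.6%, and 0 increased. The list holds genes for which the study reported decreases on these samples, so the direction is not independent evidence. The mRNA of exu, which is needed to localize bicoid mRNA in the oocyte (FBtr0086242), was at 12.44, 12.49, 12.38 and 12.73 at 1-to-3 hours and at 8.67, 9.21, 8.77 and 8.97 at 3-to-5 hours. The samples of each age stayed close together, and the log2 change was -3.60 (SE 0.16, limma adjusted p = 1.38e-05), or 12.1-fold. The later level was close to the somatic mean of 8.71.

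The actin nucleator capu (FBtr0290082), which organizes the oocyte cytoskeleton, was at 11.47, 11.64, 11.79 and 12.03 and then at 8.54, 6.74, 8.60 and 9.23, a change of -3.46 (SE 0.47, limma adjusted p = 0.000963). The 3-to-5 hour samples were spread over more than 4-fold, and all were lower than the earlier ones. The mRNA of swa, another factor for bicoid localization, fell by 2.70, from 13.33, 13.43, 13.62 and 13.65 to 10.77, 11.00, 10.80 and 10.67. Both gcl, which is needed for pole cell formation, and osk, which nucleates the germ plasm, fell as well. The log2 signals of gcl were 14.80, 14.92, 14.98 and 14.79 and then 12.72, 12.93, 12.56 and 12.66, a change of -2.15 (SE 0.13, limma adjusted p = 3.63e-05), so that it stayed above the somatic mean of 11.36 after a 4.45-fold decrease. For osk the change was -1.68 (SE 0.24, limma adjusted p = 0.00123), from 12.90, 12.52, 12.50 and 11.83 to 10.44, 10.75, 11.08 and 10.74, and the meiotic regulator mtrm, an inhibitor of Polo kinase, changed by -2.21 (SE 0.13, limma adjusted p = 3.24e-05).

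The other germ-line genes used as markers changed by less than 2-fold. None of pgc, zpg, nos, piwi, ovo and aub passed both thresholds. For nos and piwi the log2 changes of -0.85 and -0.83 had adjusted p-values of 0.00131 and 0.00156 from limma and stayed within 2-fold, and for pgc and zpg they were -0.37 and -0.36. In the same cells, then, gcl and osk lost signal while pgc and zpg stayed at 14.97 or above in every sample. The groups of gcl, osk, pgc, zpg, nos and piwi were fully separated, all lower at 3-to-5 hours, and those of ovo and aub overlapped. The decreases of nos and piwi were 1.80-fold and 1.78-fold.

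Transcripts of maternal RNA-binding regulators decreased in 9 of 29 named cases and increased in 2. The median of the list was -0.59. Among names from tables without 3-to-5 hour samples, 8 of 26 decreased. The translational repressor BicC was at 11.89, 12.57, 12.54 and 12.05 and then at 10.64, 10.56, 10.33 and 10.04, a log2 change of -1.87 (SE 0.21, limma adjusted p = 0.000423), and egl, which links mRNA cargoes to the dynein motor, changed by -1.94 (SE 0.23, limma adjusted p = 0.00049). The cytoplasmic polyadenylation factor orb was at 13.01, 13.16, 13.62 and 13.71 at 1-to-3 hours and at 11.59, 12.09, 11.77 and 11.86 at 3-to-5 hours. Its groups did not overlap, the change was -1.55 (SE 0.20, limma adjusted p = 0.000723), and the somatic mean was far lower at 8.53. The mRNA of smg itself decreased by 1.14 on the log2 scale (adjusted p = 0.00174 from limma). The repressor aret (now bru1) did not pass the fold threshold, at a change of -0.71. In the mRNA decay machinery 3 of 18 named transcripts decreased and 2 increased, and with names from tables without 3-to-5 hour samples 1 of 12 decreased and 0 increased. The deadenylase subunit Pop2 did both in different transcripts, as described below.

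Genes of cell division were called in both directions. Of 58 named cell cycle transcripts 10 decreased and 3 increased, with a median of -0.22. With names from tables without 3-to-5 hour samples 6 of 42 decreased, and 1 increased, shares near the background. The mitotic cyclin CycA (FBtr0076075) stood at 14.58, 14.32, 14.46 and 14.51 and then at 12.26, 12.27, 12.35 and 12.32. Its 4 later samples were nearly equal, and the change was -2.17 (SE 0.12, limma adjusted p = 2.38e-05). The phosphatase stg, which drives entry into mitosis, decreased from 13.12, 13.07, 13.31 and 12.89 to 11.57, 11.50, 11.58 and 11.29, a change of -1.61 (SE 0.14, limma adjusted p = 0.000148), and Cdk4, the partner of cyclin D, fell by 1.96. An increase was found for plu, a small protein that with Png kinase governs the first embryonic cell cycles. The log2 signal of plu (FBtr0086306) was 11.42, 11.03, 11.11 and 10.83 and then 12.88, 12.65, 12.83 and 12.94, a change of 1.73 (SE 0.16, limma adjusted p = 0.000174), with all 8 samples above the somatic mean of 8.97.

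Receptors, ligands and their effectors decreased in 15 of 51 named transcripts and increased in 6, with a median of -0.49. Names from tables without 3-to-5 hour samples gave 8 decreased and 1 increased of 34. The intramembrane protease stet, which acts in EGF receptor signalling of the germ line, was at 11.43, 11.55, 11.37 and 11.03 and then at 8.38, 8.64, 8.78 and 9.03, a change of -2.64 (SE 0.18, limma adjusted p = 5.41e-05). The Notch ligand gene Dl changed by -2.15 (SE 0.23, limma adjusted p = 0.000343), the Notch antagonist numb by -1.94 and the insulin receptor InR by -1.49. Each of these 4 genes had non-overlapping groups. The axon guidance receptor robo rose, from 12.12, 10.99, 10.69 and 10.18 to 13.35, 13.69, 13.85 and 13.49, a change of 2.60 (SE 0.37, limma adjusted p = 0.0012), and its later level was still below the somatic mean of 14.15. The phosphatase gene Ptp10D was not called, at -0.57, and its groups overlapped.

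Small GTPases of the Rab and Ras families decreased in 16 of 54 named transcripts, with 2 increased and a median of -0.29. Names from tables without 3-to-5 hour samples gave 12 of 41, or 29.3%, and 0 increased. This group too was reported by the study from these samples. The gene ltd (now Rab32), which acts in the biogenesis of lysosome-related organelles, was at 13.60, 12.92, 12.96 and 13.37 and then at 10.18, 10.40, 11.07 and 11.23, a change of -2.49 (SE 0.28, limma adjusted p = 0.000378). Rac2, a regulator of the actin cytoskeleton, was at 11.79, 12.24, 11.74 and 11.96 and then at 9.68, 9.76, 9.06 and 9.68, and its change was -2.39 (SE 0.20, limma adjusted p = 0.000115). Rab3, a GTPase of synaptic vesicles, rose by 2.19, from widely spread 1-to-3 hour samples of 6.32 to 9.23 that overlapped with none of the later ones.

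Further single genes that decreased were Atg7, needed for autophagy, at -2.42, the DNA repair gene Brca2 at -1.46 (adjusted p = 0.000333), the NADPH oxidase Duox at -1.37 (adjusted p = 0.00173) and rost, a factor of myoblast fusion, at -2.01 (adjusted p = 0.000187), with adjusted p-values from limma. Cytochrome P450 transcripts decreased in 6 of 15 cases and increased in 2. With names from tables without 3-to-5 hour samples 5 of 10 decreased. Beside Cyp6a19, Cyp6a22 fell by 3.37 and Cyp6v1 by 1.51. The glycolytic enzyme hexokinase A (Hex-A) was at 11.35, 11.33, 11.37 and 11.21 and then at 10.49, 10.38, 9.65 and 9.87, a change of -1.22 (SE 0.20, limma adjusted p = 0.00247), and 2 of 11 glycolysis transcripts were called. The other one, of Tpi, overlapped between the ages and lost its call in 5 of the 8 fits that leave out a sample, where the changes ran from -2.17 to -1.43. Of the 9 glycolysis transcripts named without later samples, 2 decreased and 0 increased.

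**Figure D3:**
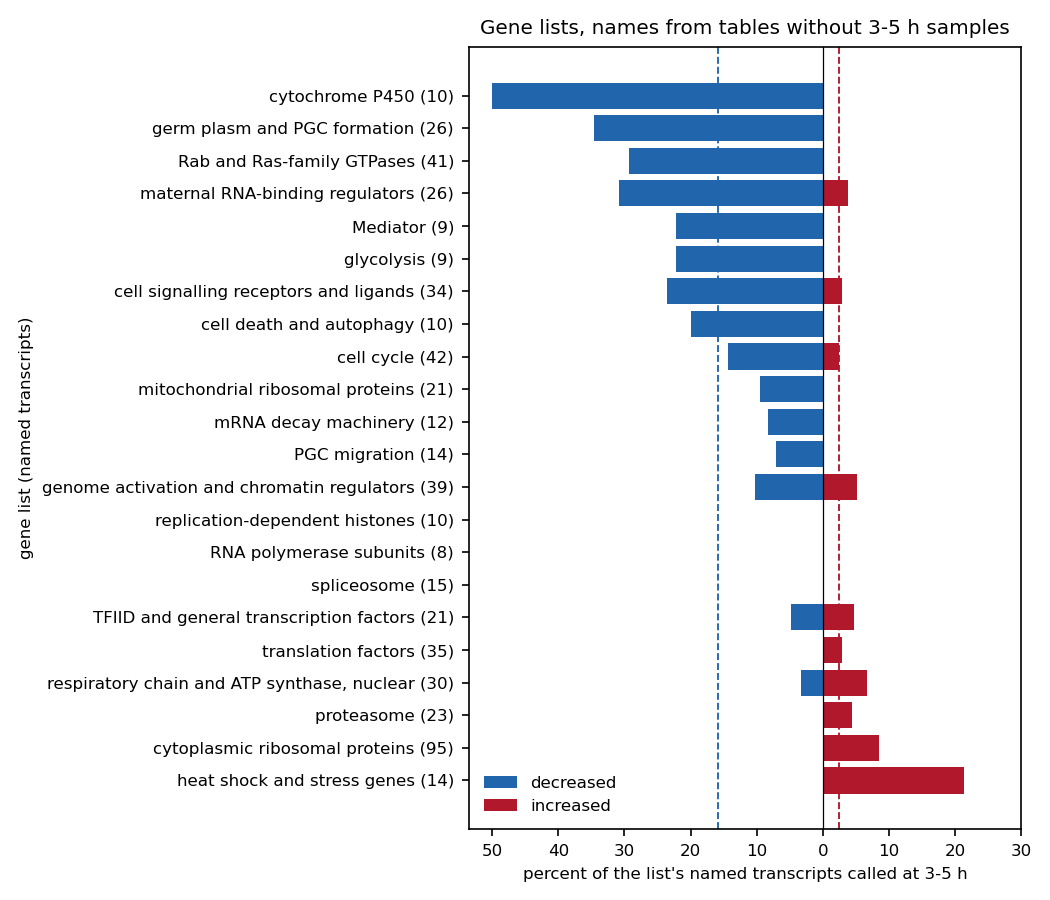
Percent of named transcripts, for each gene list drawn (y axis, with their number), that decreased (left, blue) or increased (right, red) at 3-to-5 hours. Only names from tables without 3-to-5 hour samples are used, and lists with under 8 such transcripts are not drawn. The dashed lines mark 15.8% decreased and 2.38% increased over all 3399 such transcripts, with no test of any list. The drawn bars run up to 50% decreased for cytochrome P450 and 21.4% increased for heat shock genes. Higher increased shares lie in lists not drawn, at 33.3% of 6 mitochondrial genome, 33.3% of 3 hemocyte and 25% of 4 early zygotic transcripts.

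The largest increases were those of genes of varied function. Sap47, a synapse-associated protein (FBtr0083211), was at 9.59, 8.35, 10.28 and 10.75 at 1-to-3 hours and at 13.53, 13.55, 13.31 and 13.44 at 3-to-5 hours. The early samples were spread over more than 4-fold and the later ones were nearly equal. The log2 change was 3.72 (SE 0.45, limma adjusted p = 0.000575), or 13.1-fold, and the later level was above the somatic mean of 11.73. The gene listed as trpm (FBtr0110832) went from 9.42, 8.74, 8.95 and 7.96 to 12.78, 13.20, 11.93 and 11.81, a change of 3.66 (SE 0.40, limma adjusted p = 0.000333), and it too ended above the somatic mean of 11.23. The actin-binding protein gene Unc-115a changed by 3.01 (SE 0.26, limma adjusted p = 0.000132) and remained below its somatic mean of 12.82.

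The uncharacterized CG40122 had the largest increase among the named genes of that rule, from 5.73, 5.69, 6.78 and 7.62 to 10.67, 11.34, 9.89 and 11.08, a change of 4.29 (SE 0.48, limma adjusted p = 0.000402). Next to it in number and rank was CG40127 (now RNASEK), at 6.14, 6.10, 7.20 and 7.92 and then at 10.53, 10.85, 11.06 and 10.72. Its change was 3.95 (SE 0.40, limma adjusted p = 0.000237). The cuticle protein genes Lcp9 and TwdlZ rose by 3.14 and 3.08, and CG32299 by 3.77 from early samples that ran from 4.40 to 7.08. Among 41 named transcripts with numbers from CG40000 to CG41999, 16 increased and 7 decreased. Over all named transcripts 12.8% increased and 16.3% decreased, and over all tested 5.34% and 6.08%. Naming depends in part on the later behaviour, so the 16 are not a measure of this class of genes.

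The 4 named Stellate transcripts, X-linked genes for a casein kinase subunit homologue, all increased. They share sequence, so signals may be split among the copies, and they were named only by tables that use later samples. Ste:CG33245 was at 7.34, 7.16, 7.82 and 7.31 and then at 10.62, 10.45, 9.89 and 10.99, a change of 3.08 (SE 0.25, limma adjusted p = 0.000104). For Ste:CG33246, Ste12DOR and Ste:CG33236 the changes were 2.27, 2.09 and 1.68.

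Heat shock genes were higher in 4 of 17 named transcripts, and 0 of 17 decreased, with a median of 0.24. Names from tables without 3-to-5 hour samples gave 3 of 14. The mRNA of Hsp68, an inducible Hsp70-family chaperone (FBtr0084589), was at 12.00, 12.28, 12.29 and 12.03 and then at 13.76, 13.98, 14.48 and 14.36. All 8 samples were far above the somatic mean of 8.50, and the change was 2.00 (SE 0.19, limma adjusted p = 0.000188). Hsp22 was at 8.56, 7.92, 8.79 and 8.67 and then at 10.53, 10.43, 11.18 and 11.24, a change of 2.36 (SE 0.26, limma adjusted p = 0.000391), and Hsp23 at 13.71, 13.51, 13.46 and 13.25 and then at 14.59, 14.67, 15.46 and 15.18, a change of 1.49 (SE 0.22, limma adjusted p = 0.00139). Hsp26 changed by 1.02 (adjusted p = 0.000806) from limma, and it fell below 2-fold under median centring and when either the first 1-to-3 hour or the third 3-to-5 hour sample was left out, down to 0.96 with a sample left out. The 4 that rose were above the somatic level at both ages. The co-chaperone stv (FBtr0075806), a BAG-domain partner of Hsp70, was among the 10 largest increases. It went from 8.53, 8.95, 8.82 and 8.93 to 11.31, 11.19, 12.26 and 12.14, a change of 2.92 (SE 0.27, limma adjusted p = 0.000168), with a somatic mean of 6.45. The third and the fourth 3-to-5 hour samples were higher than the first and the second in Hsp68, Hsp22, Hsp23, Hsp26 and stv, and the part of these samples in the increases was not tested beyond leaving out each one, under which all but Hsp26 kept their calls.

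Early zygotic genes of the somatic embryo gave both directions. Of 19 named transcripts 10, of 9 genes, increased and 4 decreased, with a median of 1.24. Only 4 of the 19 were named without later samples, so the shares cannot be set against that background. The gap gene tll (FBtr0085709) was at 10.64, 10.88, 10.55 and 10.75 and then at 12.78, 12.87, 12.83 and 12.62, a change of 2.07 (SE 0.13, limma adjusted p = 3.92e-05). Its mean was 165% of the somatic signal at the earlier age and 694% at the later one. For zen, a homeobox gene of the dorsal embryo, the signals were 10.89, 11.23, 11.01 and 11.37 and then 12.66, 12.64, 11.68 and 12.47, a change of 1.24 (SE 0.24, limma adjusted p = 0.005), and the later mean was 310% of the somatic one.

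The other 7 genes that rose were below the somatic signal at both ages. Doc1, a T-box gene, was at 9.05, 9.25, 9.43 and 9.93 and then at 11.66, 11.88, 11.69 and 11.53, a change of 2.27 (SE 0.20, limma adjusted p = 0.000147), and it reached 94.7% of the somatic level. Doc3, Z600 and hkb (CG9768) reached 75.5%, 60.4% and 59.4%. Doc2, en and tup reached 24.7%, 8.26% and 11.8%, and tup lost its call in 5 of the 8 fits that leave out a sample. Among the genes that fell beside slam were sna, a repressor in the mesoderm, and sc, a proneural gene. The signals of sna were 10.40, 10.47, 10.71 and 10.71 and then 8.81, 8.30, 8.31 and 7.53, a change of -2.33 (SE 0.26, limma adjusted p = 0.000355), and from 17.4% of the somatic level it went to 3.45%. For sc the change was -2.48.

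The share of somatic signal was measured because somatic cells are the main other cells of the embryo. The 50 transcripts brightest in 1-to-3 hour somatic cells, among those over 16-fold above 1-to-3 hour smaug-mutant PGCs, had a median of 2.59% to 3.14% of their somatic signal in the 1-to-3 hour PGC samples and 5.29% to 6.01% in the 3-to-5 hour samples. Those values did not overlap. With the 50 transcripts of the largest difference instead, the shares were 1.20% to 1.61% and 1.16% to 2.21% and overlapped. A gain of 2.81 percentage points of the somatic signal was exceeded by the rise of 881 of the 887 increased transcripts, and 649 ended above the somatic signal itself. A call already asked for more than a 2-fold rise to above the array mean, which nearly fixed the first count. Neither count was made over all tested transcripts, and neither tells how much somatic RNA the samples held. A somatic signal above that of 1-to-3 hour PGCs was found for 598 of the 887 increased transcripts and for 7219 of all 16623 tested. Of the 50 transcripts, 23 were themselves among the increased ones, beside 887 (5.34%) of all 16623 tested. Somatic cells were measured at 1-to-3 hours only, so that the levels of 3-to-5 hour somatic cells were not used here.

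Of 111 named transcripts of cytoplasmic ribosomal proteins 17 increased and 1 decreased, the median was 0.40, and 92 of the 111 changes were above 0. With names from tables without 3-to-5 hour samples, 8 of 95 increased, or 8.42%, and 0 decreased. Examples were RpL38, at 11.75, 11.14, 12.00 and 12.05 and then at 12.67, 13.03, 13.10 and 13.21, a change of 1.26 (SE 0.23, limma adjusted p = 0.00362), and RpL34a, at 11.32, 11.00, 11.31 and 11.26 and then at 12.55, 12.46, 12.54 and 12.38, a change of 1.26 (SE 0.13, limma adjusted p = 0.000283). Median centring, which lowers the changes of all transcripts by 0.12, left 13 of the 17 calls by number. The list is one of those that the study reported from these samples.

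Mitochondrial ribosomal proteins increased in 15 of 47 named transcripts and decreased in 2. Among names from tables without 3-to-5 hour samples, however, 0 of 21 increased and 2 decreased. The mRNA of mRpS14 (FBtr0074785) was at 9.77, 9.49, 9.56 and 9.55 and then at 11.88, 11.92, 11.82 and 11.71. The later samples were close together, and the change was 2.24 (SE 0.13, limma adjusted p = 2.45e-05). In the opposite direction mRpS24 was at 12.80, 13.15, 13.16 and 12.79 and then at 10.89, 10.09, 11.01 and 11.59, a change of -2.08 (SE 0.29, limma adjusted p = 0.00113). Nuclear genes of the respiratory chain and ATP synthase increased in 16 of 52 named transcripts and decreased in 1, with a median of 0.60, but in 2 of 30 with names from tables without 3-to-5 hour samples, and median centring brought the 16 to 10. CG12859 (now ND-B15), a subunit of complex I, was at 9.50, 9.44, 9.79 and 9.33 and then at 11.29, 11.65, 11.68 and 11.64, a change of 2.05 (SE 0.16, limma adjusted p = 8.85e-05). From the mitochondrial genome 3 of 7 named transcripts increased and 0 decreased, among them mt:ND1 at 1.58 (adjusted p = 0.00108) and mt:ND3 at 2.35 (adjusted p = 0.00443), both complex I subunits, with adjusted p-values from limma. Of the 6 named without later samples, 2 increased and 0 decreased.

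Subunits of RNA polymerases increased in 6 of 17 named transcripts and decreased in 0. None of the 6 was named without later samples. The group is another of those that the study reported from these samples. RpII18 (now Polr2F), a subunit shared by the polymerases (FBtr0078787), was at 12.09, 11.47, 11.59 and 11.42 and then at 13.46, 13.46, 13.54 and 13.55, a change of 1.86 (SE 0.17, limma adjusted p = 0.000165). The later samples were nearly equal and stood above all earlier ones. The polymerase I subunits l(2)37Cg and RpI12 rose by 1.57 and 1.43. Of the general transcription factors 2 of 33 increased and 1 decreased, and of the 21 named without later samples 1 increased and 1 decreased. Taf10 changed by 1.39 (adjusted p = 0.000989) and Taf13 by 1.33 (adjusted p = 0.000694), with adjusted p-values from limma. Mediator gave 3 increased and 2 decreased of 18, and 0 increased and 2 decreased of the 9 named without later samples.

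Splicing factors increased in 5 of 27 named transcripts and decreased in 1, and in 0 of 15 with names from tables without 3-to-5 hour samples. SC35, an SR protein, was at 10.43, 10.63, 10.46 and 10.83 and then at 12.36, 12.35, 12.01 and 12.03, a change of 1.60 (SE 0.16, limma adjusted p = 0.00022), beside a somatic mean of 12.32. U2af38, the small subunit of the factor that recognizes the 3' splice site, decreased by 1.38.

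Chromatin regulators and factors of genome activation gave 11 decreased and 9 increased of 70 named transcripts, with a median of 0.07. These transcripts are of 34 genes, and lola alone gave 16 of them, with 5 decreased and 2 increased. With names from tables without 3-to-5 hour samples, 4 decreased and 2 increased of 39. The Polycomb-group genes Psc and ph-d both rose. Psc was at 8.78, 9.16, 8.94 and 9.34 and then at 10.85, 10.85, 10.68 and 10.80, a change of 1.74 (SE 0.15, limma adjusted p = 0.000141), and ph-d changed by 1.20 (SE 0.14, limma adjusted p = 0.00049). Trl, the GAGA factor, stood at 0.93 and ttk at -0.65, both within 2-fold and not called. Apoptosis and autophagy genes gave 6 decreased and 3 increased of 23, and 2 decreased and 0 increased of the 10 named without later samples. The death gene rpr was at 8.75, 9.02, 7.62 and 7.94 and then at 10.65, 9.74, 10.25 and 10.22, a change of 1.88 (SE 0.33, limma adjusted p = 0.00336), and Buffy, a Bcl-2 family member, was at 9.41, 8.32, 8.50 and 7.71 and then at 11.02, 11.03, 10.69 and 10.51, a change of 2.33 (SE 0.33, limma adjusted p = 0.00117). Genes of PGC migration gave 3 decreased and 0 increased of 19, and those of small RNA pathways 1 and 0 of 10. Named without later samples, these were 1 and 0 of 14, and 0 and 0 of 5. Proteasome subunits gave 0 decreased and 2 increased of 29, and translation factors 0 decreased and 1 increased of 43, with Ef1alpha48D at -0.22. Named without later samples, these were 0 and 1 of 23, and 0 and 1 of 35.

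Transcripts of 1 gene could move in opposite directions. Among 462 genes with 2 or more named transcripts, 6 had a decreased and an increased one, 48 had all decreased, 32 had all increased, 126 had some but not all called, and 250 had none called. Transcripts of a gene share most of their sequence, and the parts that the array measures for each are not given in the sources used here. The largest contrast was in jar, which encodes myosin VI. Transcript RA (FBtr0084635) was at 10.91, 11.26, 11.16 and 11.37 and then at 8.29, 9.62, 8.20 and 9.17, a change of -2.36 (SE 0.32, limma adjusted p = 0.00094). Transcript RD (FBtr0100172) was at 8.45, 6.39, 5.85 and 6.02 and then at 8.91, 10.52, 10.00 and 10.31, a change of 3.26 (SE 0.59, limma adjusted p = 0.00382). Neither transcript had overlapping groups.

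The BTB zinc-finger gene lola, known for its many splice forms, had 16 named transcripts, of which 5 decreased, 2 increased and 9 were not called. The increase of RL, 1.13, fell below 2-fold without the second 1-to-3 hour sample, at 0.93. Transcript RY was at 9.92, 10.08, 10.46 and 10.92 and then at 8.11, 6.84, 7.29 and 7.64, a change of -2.87 (SE 0.31, limma adjusted p = 0.00034). RQ was at 11.66, 11.02, 10.99 and 11.01 and then at 12.30, 12.61, 12.67 and 12.58, a change of 1.37 (SE 0.19, limma adjusted p = 0.000992), and it stayed below its somatic mean of 14.44. RE, the brightest, changed by 0.44 and was not called. Pop2, a deadenylase subunit of the complex that Smaug recruits, had RA at 12.82, 13.09, 13.23 and 13.21 and then at 11.54, 12.02, 11.87 and 11.92, and RB at 10.29, 9.52, 9.83 and 10.41 and then at 11.34, 11.30, 11.86 and 11.70. The changes were -1.25 (SE 0.16, limma adjusted p = 0.000725) and 1.54 (SE 0.23, limma adjusted p = 0.0016). CG31064 gave -1.28 for RB and 1.89 for RA. The pairs of CG11779 and Asph were less firm. The decrease of CG11779 RD, -1.68, lost its call without the second or the third 1-to-3 hour sample, at -1.64 and -1.46, and also with the replicate number as a block, where the change is the same. For Asph, the decrease of RA, -1.04, fell below 2-fold without the first or the third 1-to-3 hour sample, as far as -0.92, and the increase of RE, 1.60, lost its call without the third 3-to-5 hour sample, at 1.37.

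**Figure D4:**
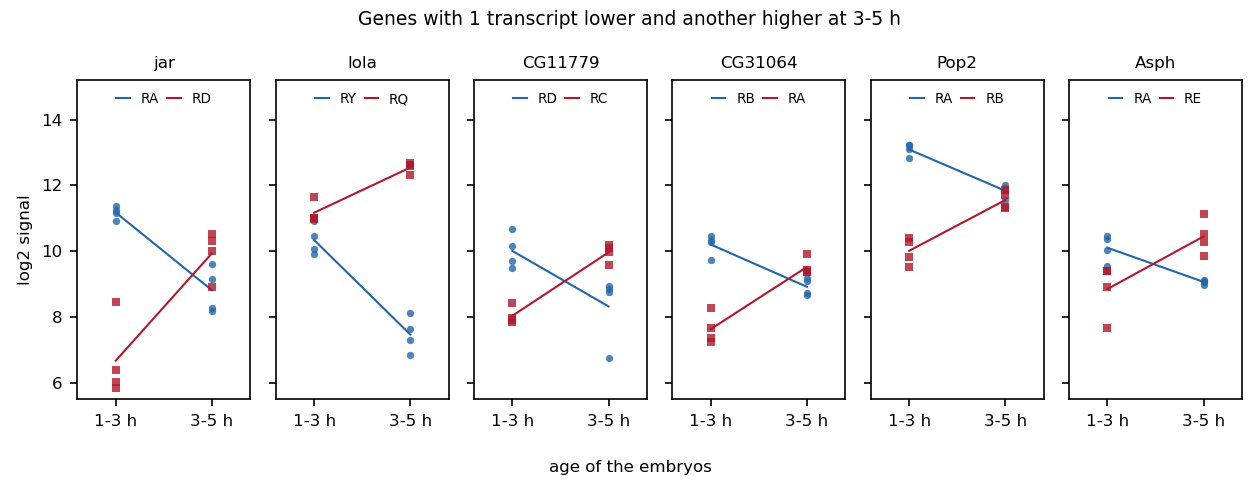
Log2 signal (y axis) of the decreased transcript (blue) and the increased transcript (red) of 6 genes at each age of wild type (x axis), with a point for each of 4 samples and a line through the means. The 2 lines of each gene run in opposite directions. Heights are not compared between transcripts, since the parts that the array measures for each are not given.

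The genes that decreased had a longer median span than those that increased. By the RefSeq annotation (Release 6 plus ISO1 MT), the 707 genes with a decreased brightest transcript that matched had a median span of 3809 bases, the 538 with an increased one 1739 bases, and all 4518 named genes that matched 2762 bases. Genes under 1 kb made up 27.3% of the increased, 2.26% of the decreased and 8.88% of all named genes. Of the decreased genes 19.7% were on the X chromosome, of the increased 12.3% and of all named 16.5%. The span includes introns, and the values are a description with no test.

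The change in wild type was set beside that in smaug-mutant PGCs of the same ages. In the mutant, 587 transcripts (3.53%) decreased and 436 (2.62%) increased by the same rule with 3 and 3 samples. Of the 1011 transcripts decreased in wild type, 357 (35.3%) were also called decreased in the mutant, and 905 (89.5%) had a change below 0 there, against 51.8% of all tested. Of the 887 increased in wild type, 217 (24.5%) were also called increased, and 778 (87.7%) had a change above 0, against 48.2% of all tested. The medians in the mutant were -0.84 and 0.85, beside -1.45 and 1.53 in wild type. The wild-type samples that chose the transcripts enter these comparisons, and a smaller median in the mutant is not independent of that choice.

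The difference of the 2 changes was tested as an interaction of genotype and time. Over all tested transcripts 1178 (7.09%) passed with a difference above 2-fold at an adjusted p under 0.05, of which 640 (3.85%) were higher and 538 (3.24%) lower in the mutant. Among the decreased transcripts of wild type, 274 (27.1%) fell less in the mutant and 1 fell more, and among the increased, 204 (23.0%) rose less and 3 rose more. In exu, the mutant change was -1.08, and the difference, mutant minus wild type, was 2.53 (SE 0.24, limma adjusted p = 0.00028). For mtrm the mutant change was -0.07 and the difference 2.14 (SE 0.25, limma adjusted p = 0.000994), and for CycA they were -0.26 and 1.91 (SE 0.22, limma adjusted p = 0.000939). Brca2 and InR had changes of 0.58 and 0.54 in the mutant, with differences of 2.04 and 2.03. Among the increases, CG40127 had the largest difference of the named genes, -3.41 (SE 0.51, limma adjusted p = 0.00297), and plu, which rose in wild type, changed by 0.01 in the mutant. The mutant started from other levels. By the methods the 2 genotypes carried different dyes, so genotype and dye cannot be told apart in these levels. CG40127 was at a mean of 11.09 in mutant PGCs at the earlier age and 11.62 at the later one, against 6.84 and 10.79 in wild type, and plu was at 13.29 and 13.30, against 11.10 and 12.82. InR began lower in the mutant, at 10.19 against 12.40. For swa, Efr and Dl no difference was called, at 0.54, 0.67 and -0.18, and for Hsp68, Buffy, rpr and trpm none was called either, with differences of -1.08, 0.14, 0.22 and 0.80.

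**Figure D5:**
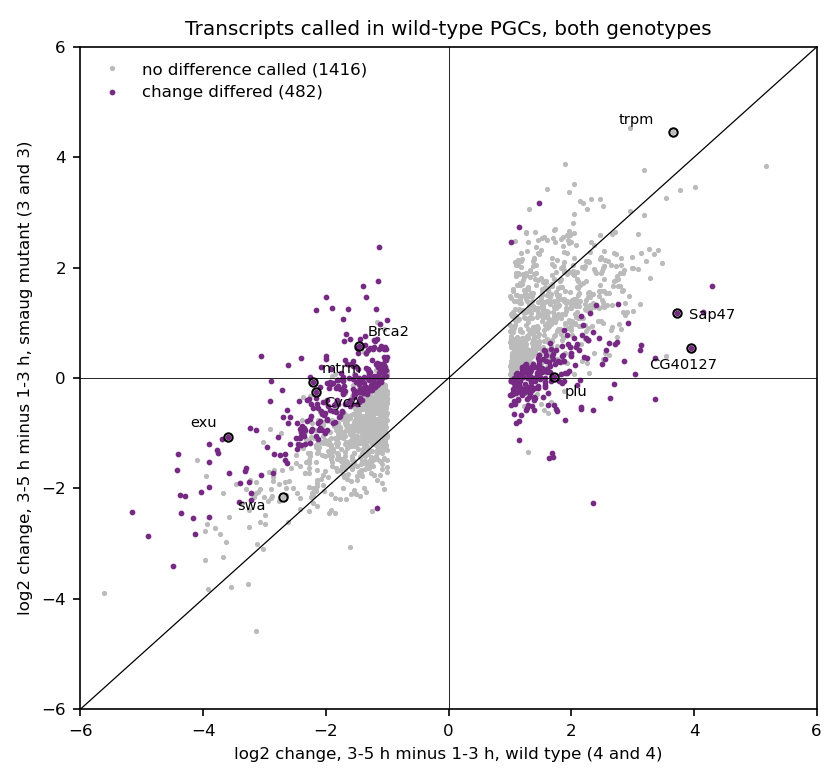
Log2 change from 1-to-3 to 3-to-5 hours in wild-type PGCs (x axis, 4 and 4 samples) and in smaug-mutant PGCs (y axis, 3 and 3 samples) for the 1898 transcripts called in wild type. The 482 whose change differed between genotypes are purple, and most of them lie between the horizontal line at 0 and the diagonal of equal change.

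Lists differed in how far the mutant followed. The median change of the germ-plasm list was -0.12 in the mutant, against -0.61 in wild type, and that of the maternal RNA-binding regulators 0.18 against -0.59. These medians describe the lists and were not tested. The mutant PGCs also differed in the GFP feature, with a mean log2 signal of 11.00 at 1-to-3 hours and 11.68 at 3-to-5 hours, and its part in the comparison of genotypes was not tested. Here too genotype and dye cannot be told apart.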

How the data were processed

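PGCs were released from pooled embryos, treated with trypsin and sorted for VASA-GFP, their RNA was extracted with TRIzol and amplified with WT-Ovation Pico, and the arrays were scanned on a GenePix scanner. Scans were quantified by the authors with Nimblescan. The deposited values are linear intensities after RMA quantile normalization in ArrayStar 3, with 1 value per transcript. The genome build of the array design is not given in the sources used here.

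Log2 of each intensity was tested with limma 3.58.1 in R 4.3.3 on the 8 samples, two-sided, with Benjamini-Hochberg adjustment over 16623 transcripts. The interaction of genotype and time used 14 samples. The remaining features (371 with CG numbers, 116 with CR numbers, 20 controls or transgenes) were kept apart. Those with CG or CR numbers were fitted and adjusted as a set of their own. Names were matched through values in the study's supplementary tables, to 6 significant digits, which named 5395 transcripts of 4800 genes, and 5082 transcripts were found in the RefSeq table. The groups, the gene lists and the genes named here were chosen with earlier results of these data known, and the lists in part follow themes that the study reported.

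Named are the 10 largest changes in each direction among called transcripts whose samples do not overlap and whose higher mean exceeds log2 9, with at most 2 uncharacterized genes in each direction, up to 4 called members of each list (or, with none called, the 2 brightest), the 6 genes with the most opposed transcripts, and genes that the study names for this step. A CG number that now has a characterized name was not counted among the 2. Some of the genes that the rule takes are not reported here.

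Alternatives were SAM, treat, a fold of 1.5, other present levels, dim transcripts left out, median centring, a second quantile normalization, a replicate block, all 26 samples, a robust trend, array weights, 1 transcript for each gene and each sample left out. Limma was tested on simulated data. Figures were drawn with Python 3.11.15, pandas 2.3.3, numpy 2.4.6 and matplotlib 3.10.9. No sequences were used.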

Additional observations from a re-analysis of the deposited data

Results flagged for a closer look

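Each of 242 groups of 4 wild-type samples, for 121 genes that the selection rule took, was searched for a sample whose gap to the nearest of the other 3 took up most of the group's range (Dixon's criterion). Such a sample was found in 12 groups, and the criterion picks about 1 in 20 groups by chance. At 1-to-3 hours, numb had a low sample at 10.54 with the others at 10.96 to 11.02, Upf2, a factor of nonsense-mediated decay, a low one at 10.71 with the others at 11.68 to 11.81, and Taf13 a high one at 13.82 with the others at 13.22 to 13.29. At 3-to-5 hours the lone samples were foxo at 5.40 (others 6.19 to 6.27), Cyp6a22 at 7.68 (6.06 to 6.27), Rac2 at 9.06 (9.68 to 9.76), HPS4 at 7.71 (8.36 to 8.46), MED31 at 13.31 (13.14 to 13.15), LSm3 at 12.66 (12.94 to 12.99), Mtr3 at 11.54 (11.10 to 11.15), CG12859 at 11.29 (11.64 to 11.68) and mt:ND3 at 11.67 (12.01 to 12.02). Of these 9 samples 7 were the first replicate, and this share was not tested. Without the sample that stood apart, the decreases of foxo, Rac2, numb and HPS4 and the increases of Taf13, LSm3, CG12859 and mt:ND3 kept their calls.

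The change differed between genotypes for 45 of the 113 named genes that were called in wild type, by limma's interaction term, with a difference above 2-fold at an adjusted p under 0.05. It differed for 482 of all 1898 transcripts called in wild type and for 1178 (7.09%) of all 16623 tested. The named genes were chosen in large part by the size of their wild-type change, so these counts are not directly comparable. The values that follow are log2 changes in the smaug mutant minus those in wild type, so that a positive value beside a decrease and a negative value beside an increase both stand for a smaller change in the mutant. In each of the 45 the mutant changed less, or the other way, as the wild-type samples that chose the genes also favour. Among the largest decreases the difference was 2.73 for Tsp74F, 2.04 for Cyp6a19, 1.08 for ced-6, 2.76 for CG1146, 2.26 for CG13004, 1.92 for foxo, 2.16 for CG10960 and 1.63 for yin. Among germ-plasm genes and RNA-binding regulators it was 2.53 for exu, 2.14 for mtrm, 1.38 for BicC, 1.76 for orb and 1.24 for smg, and the last compares a gene that carries the mutation. In signalling and small GTPases it was 2.06 for stet, 1.87 for numb, 2.03 for InR and 1.51 for Rac2. The other decreases were those of CycA at 1.91, Brca2 at 2.04, mRpS24 at 1.49 and Hex-A at 1.25.

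Among the largest increases the difference was -3.41 for CG40127, -2.61 for CG40122, -2.54 for Lcp9, -2.54 for Sap47 and -1.92 for stv. Among heat shock genes it was -1.52 for Hsp22, -1.48 for Hsp23 and -1.08 for Hsp26. Early zygotic genes gave -1.59 for Doc1 and -1.46 for hkb (CG9768), and the cell cycle gene plu gave -1.71. Subunits of the polymerases and transcription factors gave -1.55 for RpII18, -1.70 for l(2)37Cg, -1.41 for RpI12, -1.59 for Taf13 and -1.13 for Gas41, and the splicing gene LSm3 gave -1.17. Genes of mitochondria and protein turnover gave -1.52 for mRpS14, -1.43 for mRpS17, -1.89 for ox, -1.43 for CG12400, -1.33 for CG12859, -1.06 for RpL34a and -1.12 for Pros28.1.

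Features outside the test were searched as well. The GFP feature was far above the array controls in the 3-to-5 hour samples of wild type, with a mean log2 signal of 13.00, and at 12.80 in the somatic cells, which the sort takes as cells without GFP. Of the features without a transcript identifier, 28 of 93 with numbers from CG40000 to CG41999, 35 of 278 with other CG numbers and 36 of 116 with CR numbers were higher at 3-to-5 hours by more than 2-fold with an adjusted p under 0.05, without a present level.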

How the results depend on the processing

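With SAM, which the methods name, 1012 transcripts decreased and 906 increased. A test against a 2-fold change (treat) left 278 and 171, since it asks that the change exceed 2-fold beyond its error. A fold change above 1.5 gave 1817 and 1509, and without the present level 1366 and 1499 were called. Present in all 4 replicates, dim transcripts left out, median centring, a second quantile normalization, all 26 samples in 1 fit, a robust trend and array weights gave 913 to 1221 decreased and 751 to 947 increased. Median centring gave both the 1221 and the 751, with a shift of -0.12 in the median change of all transcripts. With each sample left out in turn, 931 to 1094 decreased and 824 to 980 increased. Counting 1 transcript for each named gene gave 752 and 602 genes. The genotype difference, 482 transcripts, went to 188 with all 26 samples in 1 fit, where the cause was not tested, to 463 with median centring and to 572 with no limit on its size, and to 364 to 554 with each sample left out.

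The labels number the replicates 1 to 4 at both ages. The residuals of same-numbered samples correlated at -0.23 to 0.04, and none was closest to its own number, so the number does not pair the samples. With it as a replicate block, 993 transcripts decreased and 861 increased, and 389 differed between genotypes.

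Of the values for single genes and lists, 2107 kept their side of the threshold or their count, 36 single changes lost it, 1 gained it and 52 list counts moved by over 1.5 times, all of lists with small counts except the respiratory chain, which had 10 increased transcripts under median centring. None reversed. Genes that lost a call, also by passing under 2-fold, were Tpi, Ranbp21, mol, Upf2, wun, Arc2, esc, Hsp26, CG34085, His3:CG33818, ush, MED10, Pros28.1, B52, Cyp303a1, tup, CG11779, Asph and lola (RL). The signal over the array controls limits the dimmest transcripts, and the labels give Cy5 for PGCs where the methods give Cy3 for wild type, with the pairs of samples on each array not given in the sources used here.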

Other observations

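The features with CR numbers are mostly noncoding RNAs and pseudogenes. They were higher at 3-to-5 hours in 36 of 116 cases (31.0%) and lower in 3. Of all tested transcripts 9.02% were higher and 8.22% lower by the same thresholds. The features outside the test were fitted and adjusted apart from those transcripts, so the shares are not strictly comparable. The features with numbers from CG40000 to CG41999 were higher in 28 of 93 (30.1%) and lower in 0, and those with other CG numbers in 35 of 278 (12.6%) and lower in 10. By the biotype in the RefSeq table, 9 of 17 small nucleolar RNAs and 6 of 17 long noncoding RNAs were higher, and 0 of either were lower. Many of the small nucleolar RNAs were at or near the array controls at 1-to-3 hours, and the array controls set no limit of detection.

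Among the brighter ones, lncRNA:roX1, an RNA of the dosage compensation complex of the male X chromosome, was at 12.16 ± 0.18 (SD, n = 4) at 1-to-3 hours and 13.70 ± 0.19 at 3-to-5 hours, a log2 change of 1.55 (SE 0.24, limma adjusted p = 0.00167), beside a somatic mean of 15.65. lncRNA:Hsromega, a nuclear RNA induced by heat shock, went from 11.40 ± 0.45 to 13.32 ± 0.53, a change of 1.93 (SE 0.36, limma adjusted p = 0.00383), in the same direction as the 4 heat shock genes that rose. Uhg1, a host gene of small nucleolar RNAs, changed by 1.18 (SE 0.31, limma adjusted p = 0.0224) and Uhg2, another one, by 3.36 (SE 0.34, limma adjusted p = 0.00037), the latter from a level near the controls. scaRNA:MeU5-C46, which guides the modification of a spliceosomal RNA, changed by 2.04 (SE 0.30, limma adjusted p = 0.00126) and was still below its somatic mean of 13.09.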
